A study of Mus musculus with 14 samples.

Results

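The proteasome genes were examined as a set of 37: the 14 subunits of the constitutive 20S core, 17 subunits of the 19S regulatory particle, 3 chaperones of its base and the 3 subunits of the PA28 activators. They were chosen by name, each was represented by the single-symbol probe set with the highest mean, and all 37 were measured among 19938 genes on the array. RNA came from the mouse line 4T1, established from a BALB/c mammary tumor and grown in DMEM with FBS, in 14 samples. Cnot7, the gene perturbed, encodes a deadenylase of the CCR4-NOT complex, which shortens the poly(A) tails of mRNAs. There were 3 samples of cells expressing human FLAG-tagged CNOT7 from a lentivirus with the murine Pol2 promoter and 3 vector control samples. Knockdown cells carried the hairpin sh74 (2 samples) or sh75 (3 samples), and 3 samples carried shScramble. Cells over-expressing CNOT7 were selected with blasticidin and hairpin cells with puromycin, so selection differed between the arms but not within one. The series' design speaks of 3 biological replicates for each hairpin, of which 2 samples carry the sh74 label here. Separate cultures are not stated, so the p-values measure the spread of these samples, part of which may be technical. Both hairpins were set against the same 3 shScramble samples.

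The 26S proteasome degrades proteins tagged with ubiquitin. Its 20S core is a barrel of stacked alpha and beta rings. The alpha ring gates the entry, and the beta subunits Psmb5, Psmb6 and Psmb7 carry the chymotrypsin-like, caspase-like and trypsin-like activities. The 19S particle caps the core: its base holds the ATPases Psmc1 to Psmc6, which unfold substrates, and its lid holds Psmd14, which removes ubiquitin chains. Under interferon the catalytic subunits are replaced by Psmb8, Psmb9 and Psmb10, and PA28 can bind the core in place of the 19S particle. Subunit genes are known to be induced together when proteasome activity is blocked, through the transcription factor Nfe2l1.

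All values are RMA log2 intensities, and 1 unit is a doubling. The 37 member means ran from 8.67 to 11.62, far above the 90th percentile of olfactory receptor probe sets (4.89), which stood for genes that a mammary tumor line should not express. The lowest value of any member in any sample was 8.33. Levels of different genes come from different probe sets and are not compared. Array medians were 6.31 to 6.38, and pairs of samples of 1 group correlated no more closely (median r 0.989 over 13 pairs) than pairs from different groups (0.989 over 78 pairs). Keratins were high in all samples (Krt8, 11.13 to 11.87). Of the leukocyte markers measured, Ptprc lay at 4.49 to 4.73 and Adgre1 at 4.47 to 4.89. Cd3e, at 5.68 to 6.04, lay above the olfactory limit in all samples. The epithelial genes Cldn7 (5.78 to 10.92) and Esrp1 (5.21 to 11.01) were low in some samples. Epcam, an epithelial adhesion molecule, ranged from 5.98 to 10.01 and Vim, a mesenchymal filament, from 10.08 to 13.06, with samples of 1 group at both ends. The mesenchymal list also held Fn1 (11.72 to 12.75), Zeb2 (6.16 to 8.62), Zeb1 (5.24 to 5.57) and Cdh2 (4.02 to 4.22), the last below the olfactory limit. Over the 14 samples the mean of the 37 members had r of -0.11 with the epithelial list and 0 with the mesenchymal list, given as a description of samples that include the treatment groups.

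The targeted gene followed the hairpin labels. Mouse Cnot7 stood at 8.71 and 9.33 in sh74 and at 7.52, 8.51 and 8.07 in sh75, against 10.44, 10.33 and 10.20 in shScramble. The change was -1.31 in sh74 (SE 0.29, limma adjusted p = 0.279) and -2.29 in sh75 (SE 0.26, limma adjusted p = 0.00911), which left 40.4% and 20.4% of the shScramble level. In over-expressing cells the probe set gave 10.64, 10.02 and 10.08, against 10.07, 10.52 and 10.15 in vector control. The transgene is human and whether this mouse probe set reads it was not tested, so it does not check that arm.

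No member passed the test in any comparison. With 37 members tested in each fit across 21789 probe sets (limma, Benjamini-Hochberg adjusted p under 0.05), 0 were called in over-expression against vector control, where 0% of all probe sets were called. The count was also 0 in sh74 against shScramble (0.00918% of all called), sh75 against shScramble (0.0918%), both hairpins against shScramble (0.0184%) and sh74 against sh75 (0.174%). It was 0 again for the over-expression change minus the mean hairpin change (0% of all) and for any difference among the 5 groups (moderated F, 0.0597% of all). At an unadjusted p under 0.05 there were 0 members in over-expression, 5 in sh74, 1 in sh75, 4 in both hairpins, 4 in sh74 against sh75 and 1 in the difference of changes. Those counts stood beside 2.58%, 7.33%, 8.26%, 7.3%, 8.93% and 3.49% of all probe sets in the same order. The methods' t-test with Benjamini-Hochberg adjustment also called 0 members in each of the 5 comparisons it was run on. The plot of member changes shows the intervals.

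**Figure D1:**
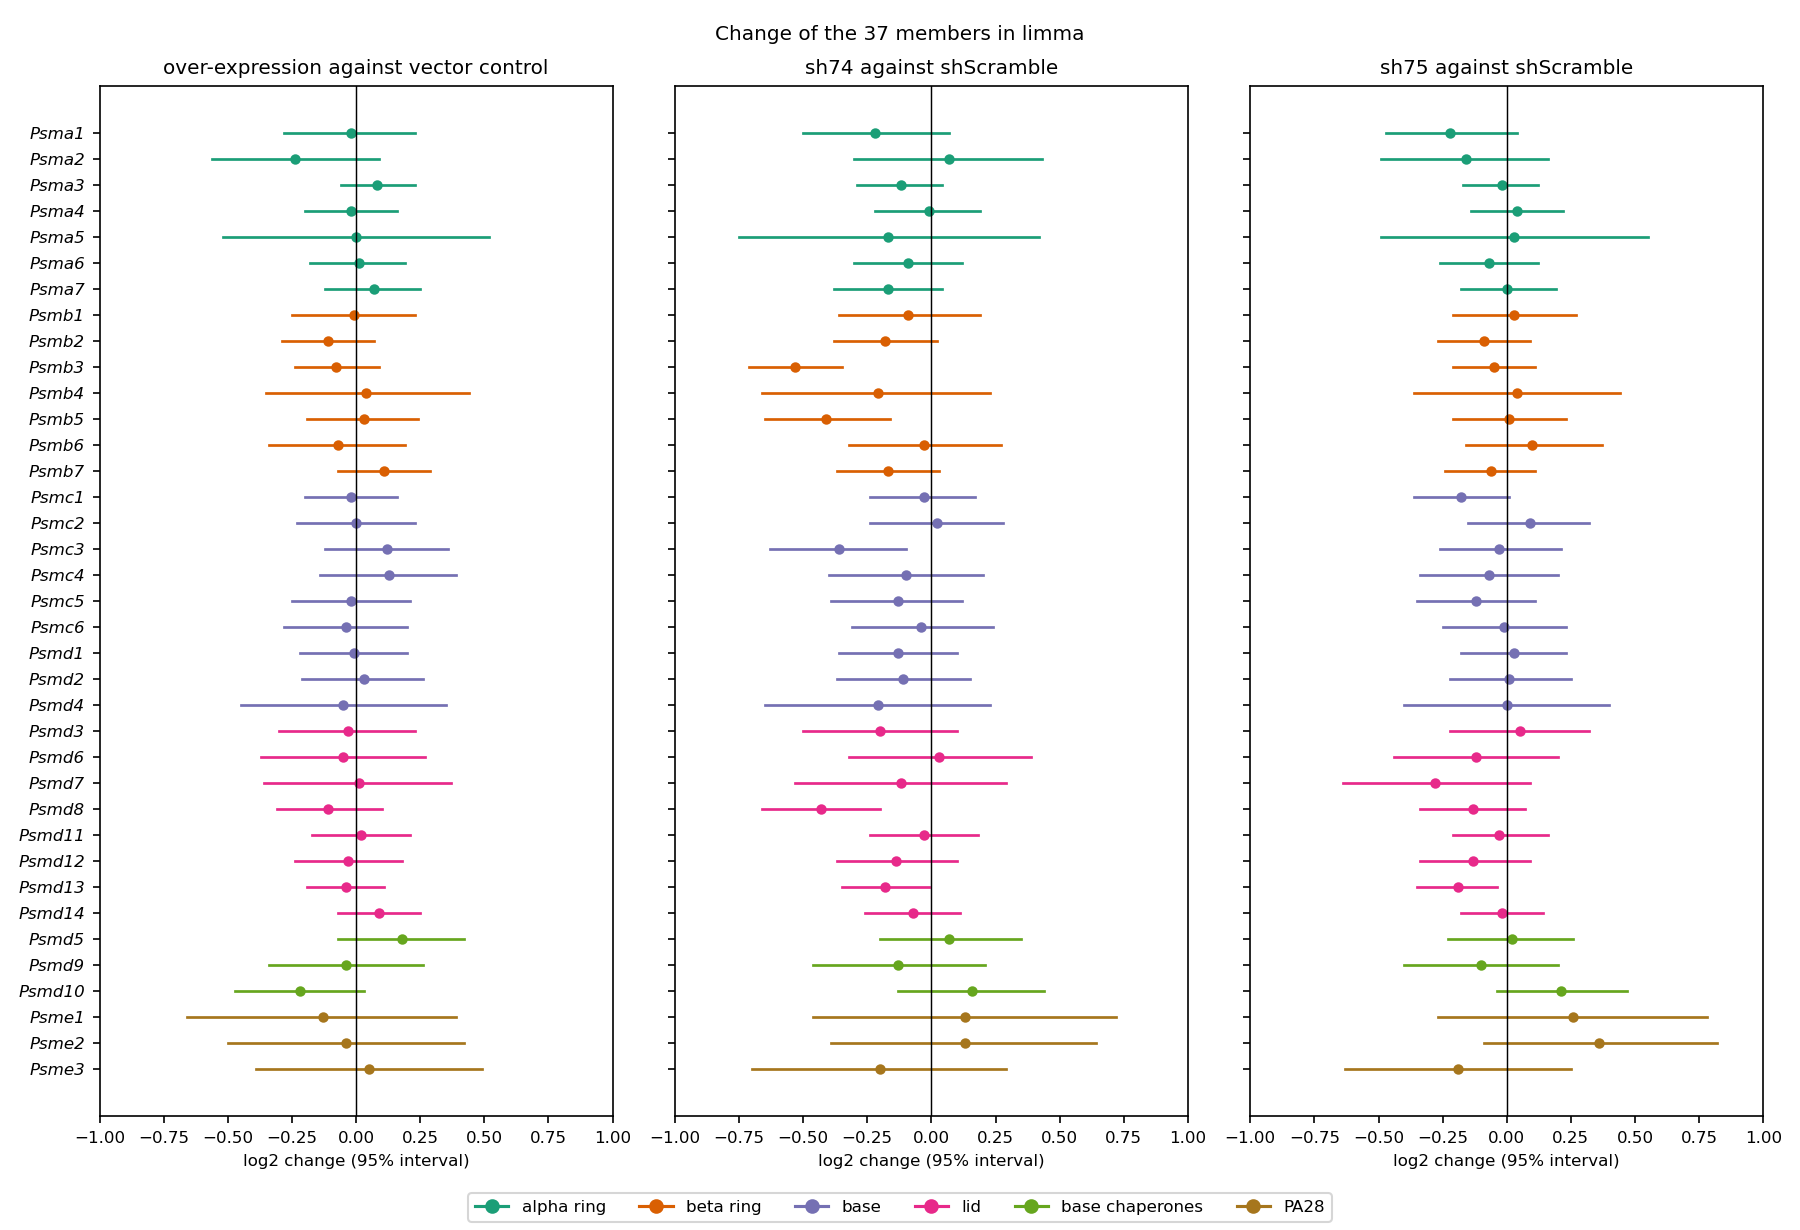
Change of each of the 37 members in log2 units (dots) with its 95% interval (lines) in over-expression against vector control, sh74 against shScramble and sh75 against shScramble, colored by subcomplex. In sh74 30 of 37 dots lie below 0, with Psmb3 farthest at -0.53, while the over-expression dots stay between -0.24 and 0.18.

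The intervals bound how far the levels could have moved. In over-expressing cells the 95% interval of 36 of 37 members lay within a 1.5-fold change in either direction, the exception being Psme1. In sh75 it did so for 33 members, all but Psmd7, Psme1, Psme2 and Psme3. In sh74, with 2 samples, 27 intervals lay within that range. The most distant bounds were -0.66 and 0.52 in over-expression, -0.75 and 0.72 in sh74, and -0.64 and 0.82 in sh75.

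Over-expression left the members spread about 0. Of the 37, 21 were below 0 (56.8%, against 46.1% of all probe sets), with a median change of -0.02. With 1 sample left out the count ran from 15 to 25. The 4670 genes with a mean at or above the lowest member mean had a median of 0.02. The alpha ring (median 0), beta ring (-0.01), base (-0.01) and lid (-0.03) gave like values. Psmb2, a beta subunit, was the single member without overlap of the groups (7.72% of all probe sets), at 10.47, 10.43 and 10.44 in over-expressing cells against 10.61, 10.47 and 10.58 in vector control (apart by less than the last digit shown). Its change was -0.11 (SE 0.08, limma adjusted p = 1).

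The members with the smallest p in this comparison were Psmd10, Psma2 and Psmd5. Psmd10, or gankyrin, is a base chaperone that binds the ATPase Psmc4. It had 8.49, 8.44 and 8.63 in over-expressing cells against 8.58, 8.90 and 8.74 in vector control, a change of -0.22 (SE 0.11, limma adjusted p = 1). Psma2, an alpha subunit, had 9.78, 9.73 and 9.16 against 9.90, 9.65 and 9.83 in vector control (-0.24, SE 0.15, limma adjusted p = 1). Its low value came from over-expression sample 3 alone, and without that sample the change was -0.04. Psmd5, another base chaperone, had 10.43, 10.51 and 10.58 against 10.03, 10.48 and 10.48 in vector control (0.18, SE 0.11, limma adjusted p = 1). Here 1 vector control sample was low, and without it the change was 0.03. The groups of all 3 genes overlapped.

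The hairpin sh74 gave lower values over most of the set, none of which passed the test. Of the 37 members, 30 were below the shScramble mean (81.1%, against 48.7% of all probe sets). Among the 4670 genes at or above the lowest member mean, 49.6% were. The median change was -0.12 in the members, against 0 in those genes. In 14 members both sh74 samples lay below all shScramble samples and in 0 above them. A gap of either kind held in 22% of all probe sets, since 2 samples separate easily from 3. Without sh74 sample 1 the median was -0.05, with 28 members below 0. Members share their samples, so the count is not one of independent genes. In cultures measured in bulk, less RNA per cell and fewer cells of a kind cannot be told apart.

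The rings, base and lid gave like counts in sh74, and no test compared them. All 7 beta ring genes were below 0, with a median of -0.18 and a range from -0.53 to -0.03. The counts were 6 of 7 for the alpha ring (median -0.12), 8 of 9 for the base (-0.11) and 7 of 8 for the lid (-0.13). The base chaperones had 1 of 3 below 0 (median 0.07), and PA28 had 1 of 3 (0.13). Centred on each gene's mean over the 14 samples, the beta ring averaged -0.22 and -0.21 in the sh74 samples, against -0.02, -0.01 and 0.08 in shScramble. The sh75 samples had -0.02, -0.02 and 0.09, the over-expressing samples -0.05, 0.10 and 0.09, and the vector control samples 0.09, -0.06 and 0.15. The sh74 samples were thus the lowest of the 14 for this ring, and no test was run on this average.

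The lowest changes in sh74 were those of Psmb3, Psmd8, Psmb5 and Psmc3. Psmb3 is a structural beta subunit without its own proteolytic site. It measured 9.96 and 9.88 in sh74 against 10.39, 10.52 and 10.43 in shScramble. The change was -0.53 (SE 0.08, limma adjusted p = 0.113), or 69.3% of the shScramble level. An exact two-sided permutation test on these samples gave p = 0.1, the smallest that 2 against 3 samples allow. Psmb3 had been picked as the member with the smallest sh74 p, so this value adds no support. A gap between these groups held in 22% of all probe sets. The other groups reached 10.33 to 10.60, so both sh74 samples lay below the remaining 12. Another probe set annotated to Psmb3 followed it (r = 0.99 over 14 samples) and had a change of -0.45. Across the alternative settings and left-out samples the adjusted p of Psmb3 ran from 0.0623 to 0.728.

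Psmd8 is a lid subunit. Its values were 9.92 and 10.12 in sh74 against 10.61, 10.32 and 10.43 in shScramble, a change of -0.43 (SE 0.10, limma adjusted p = 0.326). Psmb5, the chymotrypsin-like catalytic subunit and the main target of bortezomib, measured 9.07 and 9.02 in sh74 against 9.45, 9.40 and 9.50 in shScramble. It had a change of -0.41 (SE 0.11, limma adjusted p = 0.431). The base ATPase Psmc3 had 8.95 and 9.26 in sh74 against 9.41, 9.39 and 9.60 in shScramble (-0.36, SE 0.12, limma adjusted p = 0.539), and was chosen for this account after its values were seen. For these 3 genes, as for Psmb3, both sh74 samples lay below each of the other 12, which the plot of the 4 genes shows. For Psmc3 the gap was narrow, with 9.26 in sh74 against 9.28 in vector control sample 1. All 4 genes were picked for their low sh74 changes, and the share of all probe sets placed so was not computed.

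**Figure D2:**
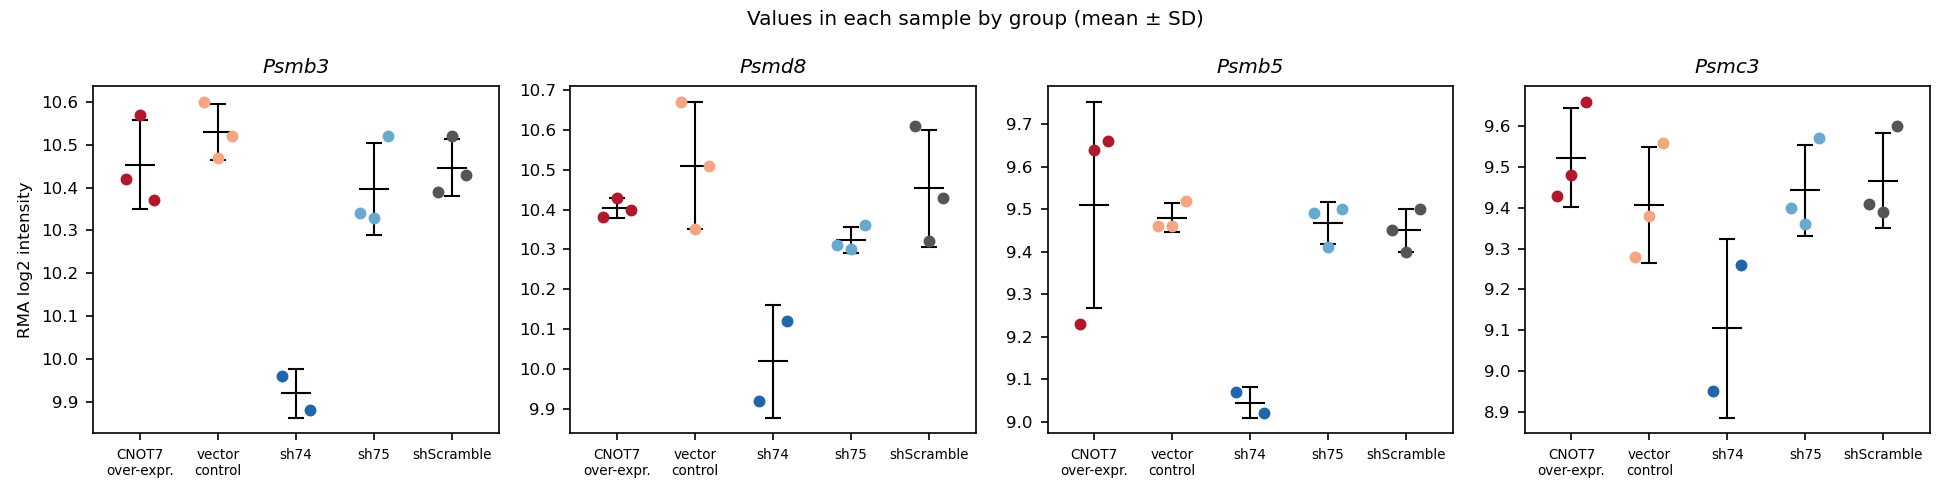
RMA log2 intensity of Psmb3, Psmd8, Psmb5 and Psmc3 in each sample (points) with the group mean and SD (black bars) for the 5 groups. The 2 sh74 samples are the lowest points in all 4 panels, for Psmb3 at 9.96 and 9.88 against 10.39 to 10.52 in shScramble.

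The 4 genes lay closer to shScramble in sh75, the hairpin with the lower Cnot7 values. They had been chosen for their low sh74 changes, so smaller changes in another comparison follow in part from that choice. In sh75, 22 of 37 members were below 0 (59.5%, against 50.2% of all probe sets), with a median of -0.02. The beta ring had 3 below and 4 above 0 (median 0.01). The change in sh75 was -0.05 for Psmb3, 0.01 for Psmb5, -0.13 for Psmd8 and -0.03 for Psmc3. The median depended on sh75 sample 3, without which it was -0.10 with 30 members below 0. The lid had 7 of 8 genes below 0 (median -0.12), with Psmd7 at -0.28 (SE 0.17, limma adjusted p = 0.709). The lid subunit Sem1, outside the 37, had 0.17 in sh75.

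The smallest p in sh75 was that of Psmd13, a lid subunit. Its values were 9.45, 9.31 and 9.52 in sh75 against 9.72, 9.55 and 9.60 in shScramble, a change of -0.19 (SE 0.07, limma adjusted p = 0.476). It was the single member whose sh75 and shScramble groups did not overlap (13.5% of all probe sets). In sh74 it had 9.40 and 9.49 (-0.18, SE 0.08, limma adjusted p = 0.669), so its 5 hairpin samples all lay below the 3 shScramble samples they share. Psmc1, a base ATPase, had 9.92, 9.89 and 10.08 in sh75 against 10.02, 10.28 and 10.11 in shScramble (-0.18, SE 0.08, limma adjusted p = 0.622). Psmd10 had 8.87, 8.66 and 8.87 in sh75 against 8.43, 8.50 and 8.82 in shScramble (0.21, SE 0.11, limma adjusted p = 0.674), and both pairs of groups overlapped.

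Set directly against each other, sh74 lay below sh75 in 30 of 37 members (49.2% of all probe sets), with a median of -0.07. Without sh75 sample 3 the median was 0.01, with 18 members below 0, and without sh74 sample 1 there were 22 below 0. The beta ring had 7 of 7 genes below 0. Psmb3 differed by -0.48 (SE 0.08, limma adjusted p = 0.0547) and Psmb5 by -0.42 (SE 0.11, limma adjusted p = 0.234), both without overlap of the samples. The share of all probe sets without overlap was not computed for these groups, and both genes had been named for their low sh74 values. For both hairpins together, 30 of 37 members were below 0 (48.8% of all probe sets), with a median of -0.08. Across the 5 groups Psmb3 also had the smallest adjusted p of the moderated F test among the members (0.0749).

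The over-expression change minus the mean hairpin change asked whether the arms moved apart. It was below 0 in 9 of 37 members (48.2% of all probe sets) and above 0 in 28. The member median was 0.08, against 0.03 in the 4670 genes at or above the lowest member mean. Psmd10 alone had an unadjusted p under 0.05, with a difference of -0.40 (SE 0.15, limma adjusted p = 1), and so ran against most of the complex.

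Taking the means of the 5 groups, sh74 was the lowest in 23 of 37 members and the highest in 1. The like share over all probe sets was not computed, and a mean of 2 samples varies more than a mean of 3. The lowest mean lay in sh75 for 6 members, in vector control for 4, in shScramble for 3 and in over-expressing cells for 1. The range of the 5 means was narrow: 0.05 for Psmd11, a lid subunit, 0.19 at the median over the members and 0.61 for Psmb3. Seen by sample, the mean of the centred members was -0.14 and -0.07 in sh74 and -0.05, -0.10 and 0.11 in sh75, against 0.02, -0.02 and 0.04 in shScramble. It was -0.03, 0.05 and 0.05 in over-expressing cells, against 0.08, -0.04 and 0.08 in vector control. In sh74 sample 1 only 4 of 37 members lay above their own mean, whereas in sh75 sample 3 and vector control sample 3 31 did. Thus sh75 samples stood near both ends.

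**Figure D3:**
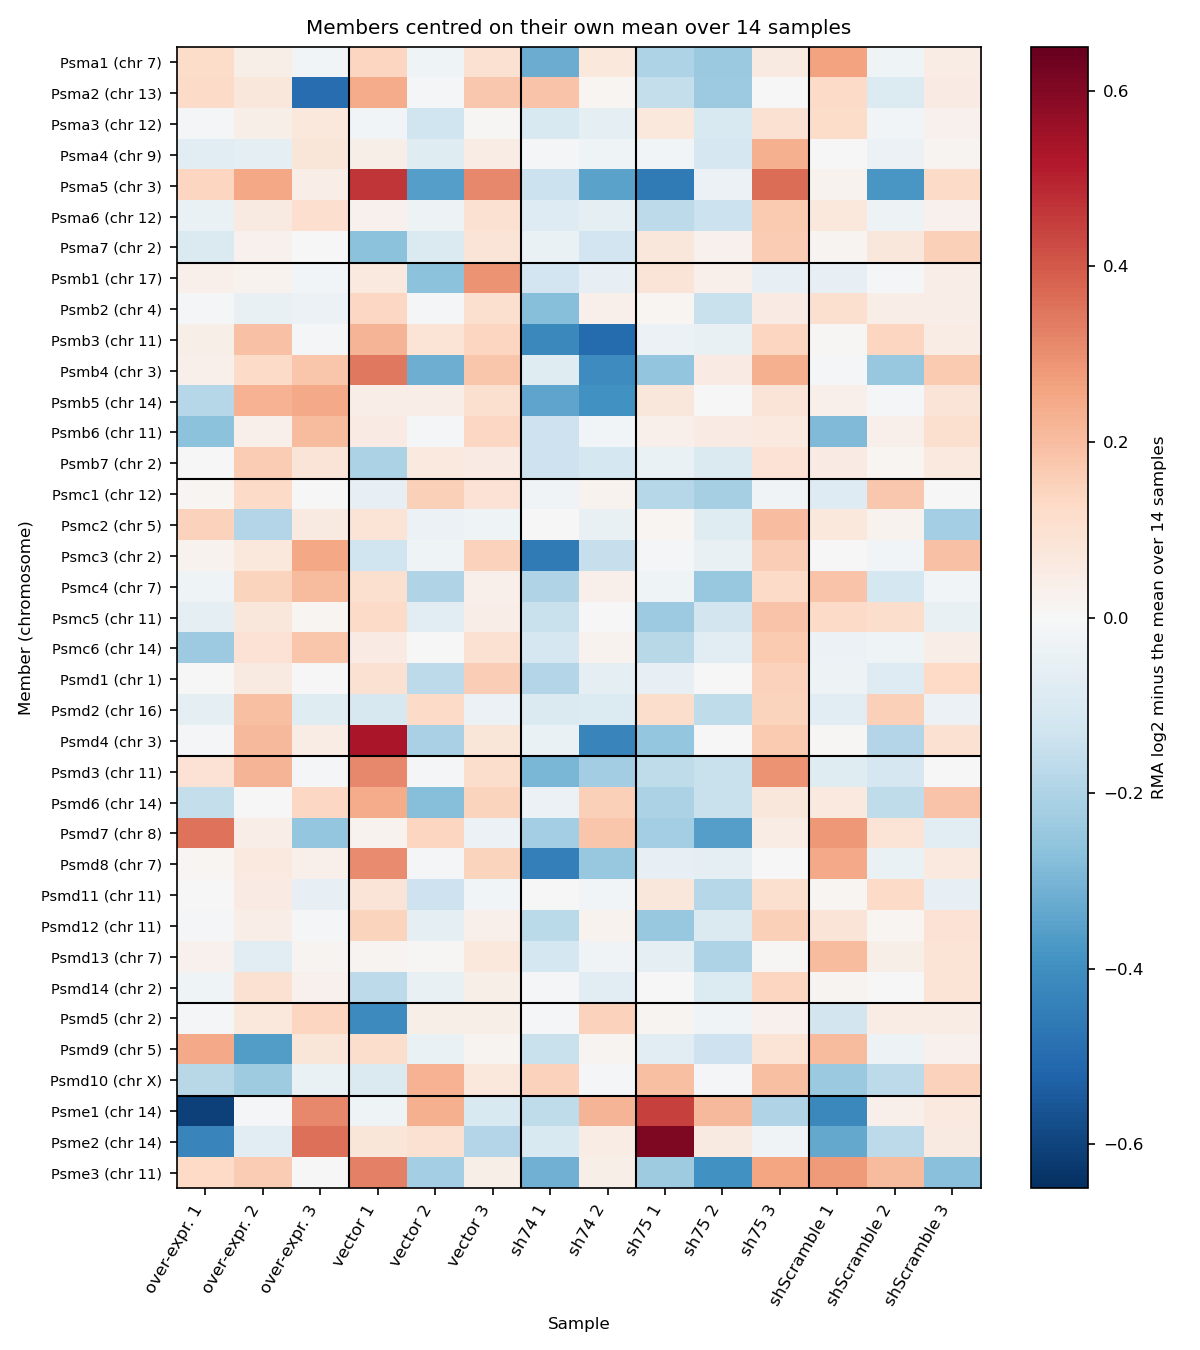
The 37 members (rows, by subcomplex from alpha ring to PA28, with the chromosome) in 14 samples (columns, by group), each as RMA log2 minus its mean over the samples. Blue prevails in sh74 sample 1, where 4 of 37 members lie above their mean, and the rows of Psma5, Psmb4 and Psmd4, all on chromosome 3, share their colors.

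The promoters of the genes named above were read for motifs. RefSeq windows (GRCm38.p6, 250 bases before to 50 after the start) were found for 31 of 37 members. They are shown 5′ to 3′ for the 3 members with the smallest p in sh74 and for Psme1, an interferon-inducible PA28 subunit described with Psmb8. Capitals mark matches, on either strand, to CCAAT (the CCAAT box), TGACNNNGC (the core bound by Nfe2l1 and Nfe2l2), CCGGAAG (an ETS core) and the interferon response core, a repeat of GAAA with a spacer. Psmb3 lies at chr11:97703184-97703483 (plus strand), Psmd8 at chr7:29180624-29180923 (minus), Psmb5 at chr14:54617946-54618245 (minus) and Psme1 at chr14:55578244-55578543 (plus).
Psmb3: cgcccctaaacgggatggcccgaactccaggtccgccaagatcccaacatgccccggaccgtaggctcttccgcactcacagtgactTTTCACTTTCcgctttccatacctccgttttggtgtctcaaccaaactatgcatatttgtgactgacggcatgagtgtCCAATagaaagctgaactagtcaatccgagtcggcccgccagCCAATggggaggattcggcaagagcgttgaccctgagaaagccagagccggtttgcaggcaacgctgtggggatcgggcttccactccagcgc
Psmd8: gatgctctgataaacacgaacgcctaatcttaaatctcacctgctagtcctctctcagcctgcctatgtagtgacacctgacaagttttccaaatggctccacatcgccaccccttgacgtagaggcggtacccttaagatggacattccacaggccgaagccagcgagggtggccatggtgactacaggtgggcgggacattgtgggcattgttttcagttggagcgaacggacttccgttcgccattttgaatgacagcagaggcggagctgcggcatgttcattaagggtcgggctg
Psmb5: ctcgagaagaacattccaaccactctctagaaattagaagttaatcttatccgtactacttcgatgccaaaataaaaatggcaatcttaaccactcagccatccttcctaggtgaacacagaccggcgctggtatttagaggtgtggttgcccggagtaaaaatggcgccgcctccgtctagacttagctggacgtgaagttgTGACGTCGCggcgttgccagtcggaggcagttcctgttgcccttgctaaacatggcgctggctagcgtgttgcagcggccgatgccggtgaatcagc
Psme1: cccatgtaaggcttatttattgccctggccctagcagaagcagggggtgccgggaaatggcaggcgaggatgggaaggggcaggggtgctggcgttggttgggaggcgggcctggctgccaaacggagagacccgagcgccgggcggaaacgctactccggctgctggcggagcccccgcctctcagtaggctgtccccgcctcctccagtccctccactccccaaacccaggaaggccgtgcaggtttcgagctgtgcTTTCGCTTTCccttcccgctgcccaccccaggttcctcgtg
Psmb3 held 2 CCAAT boxes and the interferon core as TTTCACTTTC on the other strand, Psmb5 held TGACGTCGC, Psme1 held TTTCGCTTTC, and Psmd8 held none of the 4 motifs. Thus the 3 genes with the lowest sh74 values shared none of them. Over the 31 member promoters, TGACNNNGC was in 5 (16.1%, against 12.5% of 27025 promoters) and CCAAT in 12 (38.7%, against 37.9%). CCGGAAG was in 10 (32.3%, against 9.12%), namely Psmc1, Psmc2, Psmc6, Psmd2 and Psmd4 of the base, Psmd6, Psmd11, Psmd12 and Psmd13 of the lid, and Psme3. The interferon response core was in 4 (12.9%, against 3.49%). A match describes these letters and is not a bound site.

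The catalytic subunits are given beside their interferon-inducible counterparts, and of these pairs only Psmb5 and Psmb8 were correlated over the samples. Psmb6, the caspase-like subunit, had 11.10 and 11.22 in sh74 and 11.27, 11.29 and 11.30 in sh75, against 10.95, 11.27 and 11.34 in shScramble. In over-expressing cells it had 10.97, 11.27 and 11.44, against 11.29, 11.23 and 11.37 in vector control, and the groups overlapped in all 3 comparisons. Psmb7, the trypsin-like subunit, had 11.04 and 11.06 in sh74 and 11.13, 11.08 and 11.27 in sh75, against 11.23, 11.19 and 11.24 in shScramble. Both sh74 samples were below shScramble (-0.17, SE 0.09, limma adjusted p = 0.745). In over-expressing cells Psmb7 had 11.17, 11.34 and 11.26, against 10.97, 11.24 and 11.23 in vector control. Psmb5 had 9.49, 9.41 and 9.50 in sh75, level with shScramble, and 9.23, 9.64 and 9.66 in over-expressing cells, against 9.46, 9.46 and 9.52 in vector control.

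Psmb8, the counterpart of Psmb5, varied far more from sample to sample, between 6.80 and 9.23. It had 7.02 and 8.13 in sh74 and 8.48, 8.75 and 8.29 in sh75, against 6.96, 7.86 and 8.18 in shScramble. Over-expressing cells had 6.80, 8.84 and 8.82, against 7.21, 9.23 and 7.61 in vector control. All 3 sh75 samples exceeded shScramble (0.84, SE 0.63, limma adjusted p = 0.788), but the other groups each held a low and a high sample. Psmb9, the counterpart of Psmb6, ranged from 6.92 to 7.95 and Psmb10, that of Psmb7, from 8.13 to 8.90, both highest in vector control sample 2. Psmb9 had 7.25 and 7.34 in sh74 and 7.33, 7.35 and 6.96 in sh75, against 6.97, 7.2 and 7.05 in shScramble. None of the 3 genes passed the test in any comparison.

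**Figure D4:**
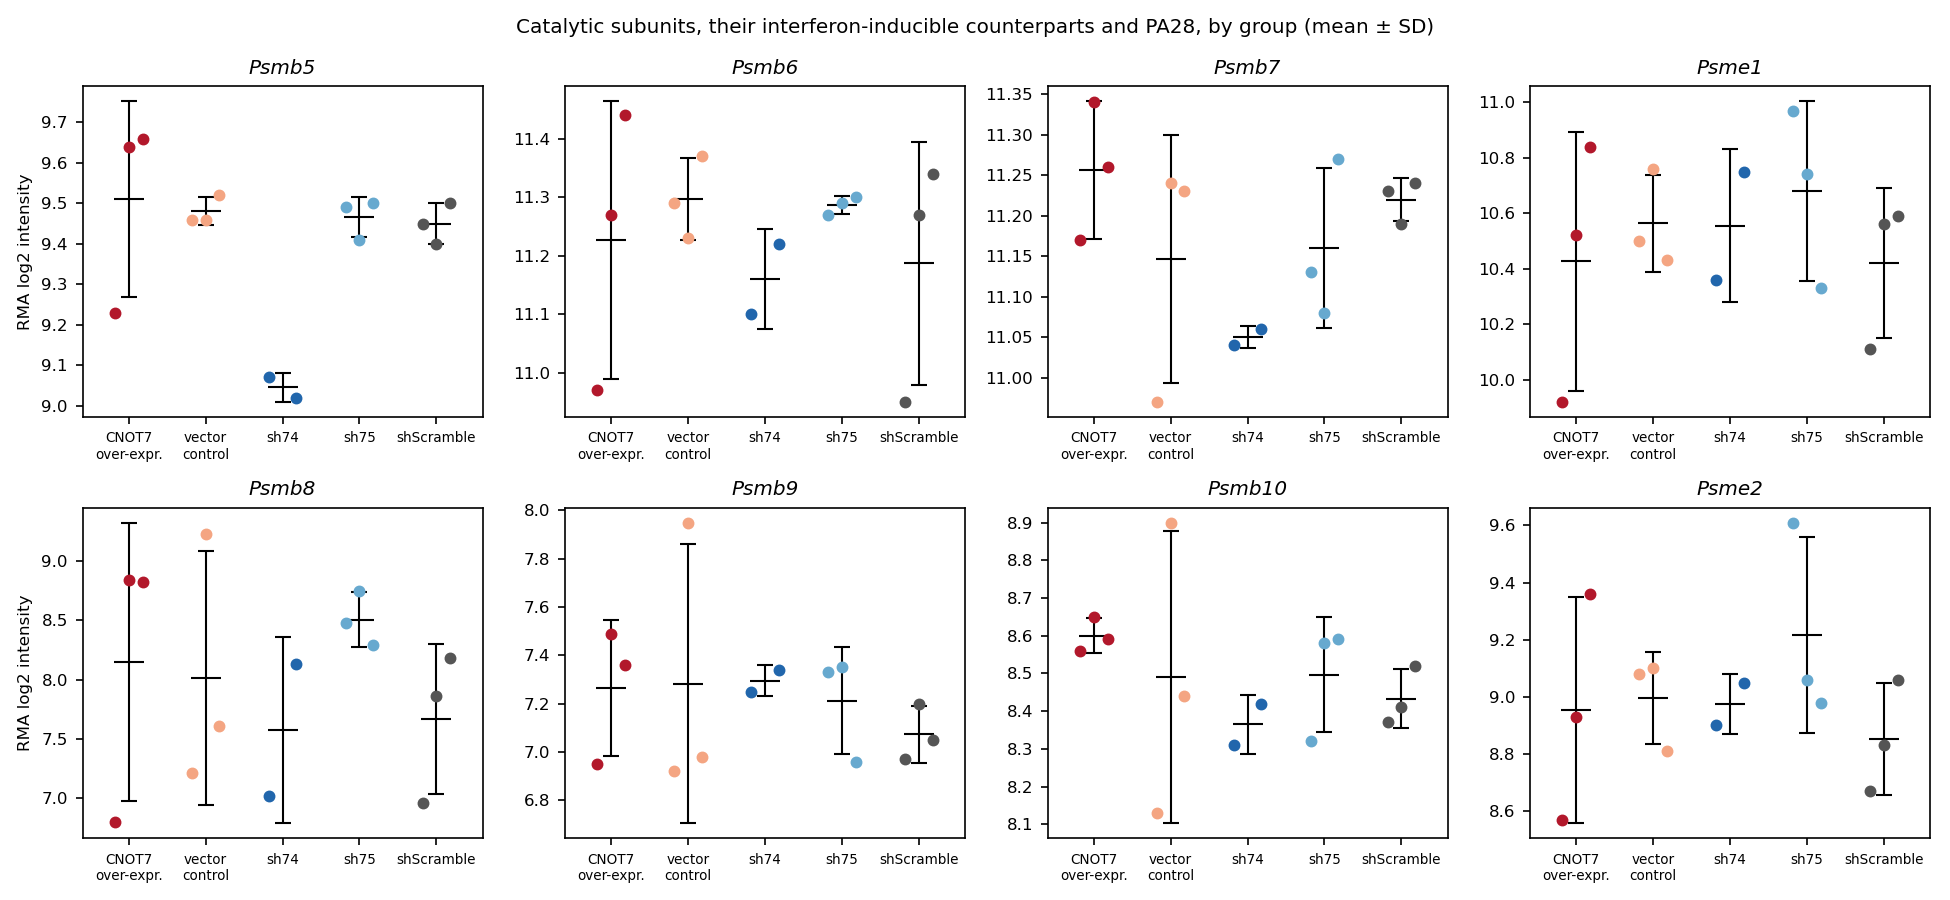
RMA log2 intensity in each sample (points) with group mean and SD (black bars) for the catalytic subunits Psmb5, Psmb6 and Psmb7, their counterparts Psmb8, Psmb9 and Psmb10 below them, and Psme1 over Psme2, each panel on its own scale. Psmb8 spans 6.80 to 9.23 over the samples, while the sh74 points of Psmb5 lie apart at 9.07 and 9.02.

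The PA28 subunits Psme1 and Psme2 form 1 heteromeric activator and went with Psmb8. Psme1 had 10.36 and 10.75 in sh74 and 10.97, 10.74 and 10.33 in sh75, against 10.11, 10.56 and 10.59 in shScramble. It had 9.92, 10.52 and 10.84 in over-expressing cells, against 10.50, 10.76 and 10.43 in vector control, and all groups overlapped. Psme2 had 8.90 and 9.05 in sh74 and 9.61, 9.06 and 8.98 in sh75, against 8.67, 8.83 and 9.06 in shScramble. Its largest change was 0.36 in sh75 (SE 0.21, limma adjusted p = 0.698), with overlap. In over-expressing cells Psme2 had 8.57, 8.93 and 9.36, against 9.08, 9.10 and 8.81 in vector control. Over 14 samples Psme1 and Psme2 had r = 0.88 (rho 0.84), Psme1 and Psmb8 r = 0.78 (rho 0.74), Psme2 and Psmb8 r = 0.63 (rho 0.68), and Psmb5 and Psmb8 r = 0.47 (rho 0.50). Psme3, which forms the nuclear PA28 of a single kind of subunit, had r = -0.50 with Psme1. These correlations describe samples that share treatment groups, and Psme1, Psme2 and Psmb5 also share chromosome 14.

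At the median the members varied less than the genes at or above their lowest mean, but about as much as all genes. The SD over the 14 samples had a median of 0.14 (0.08 to 0.30) over the 37. It was 0.20 over the 4670 genes at or above their lowest mean, a set without an upper bound, and 0.13 over all 19938 genes. The most variable were Psma5 (0.30), Psme1 (0.29), Psme2 (0.27) and Psme3 (0.24), then Psmb4 and Psmd4 (0.23 each). Over the 666 pairs of members the correlation across samples had a median of 0.25, from -0.66 to 0.93. It reached 0.8 in 17 pairs and was below 0 in 177. Most pairs of subunits thus had low correlations across these samples.

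Of the 17 pairs at 0.8 or more, 9 were on 1 chromosome (52.9%), as were 54 of all 666 pairs, a pattern noticed after the values were seen. These 9 included the 6 pairs with the highest correlations. Pairs on 1 chromosome had a median r of 0.54 and pairs on different chromosomes 0.23. Psma5 of the alpha ring, Psmb4 of the beta ring and Psmd4, a ubiquitin receptor of the base, belong to different subcomplexes and all lie on chromosome 3. Their pairs had r of 0.93 (Psma5 and Psmb4), 0.90 (Psma5 and Psmd4) and 0.92 (Psmb4 and Psmd4) over 14 samples. After group means were removed the values were 0.93, 0.88 and 0.92. Of the 8618 genes with a mean of at least 7, 412 (4.78%) lie on chromosome 3. Yet for each of these 3 members all 25 of the 25 most correlated genes did. The same held for Psma2 on chromosome 13, Psmb1 on chromosome 17 and Psmd7 on chromosome 8. In all, 25 of 37 members had at least 5 of their 25 most correlated genes on their own chromosome. The chromosomes of the 37 members held 2.77% to 8.73% of the 8618 genes each. Among the exceptions, Psma3 and Psmd1 had 0.

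The chromosome 3 median moved as well in some samples, and positions along the chromosome were not examined. The median of the 412 expressed chromosome 3 genes, each set against its own mean, was 0.33 in vector control sample 1 and -0.26 in vector control sample 2. It was -0.22 in sh74 sample 2, -0.21 in sh75 sample 1 and -0.25 in shScramble sample 2. Psmd4 deviated by 0.53, -0.21, -0.43, -0.25 and -0.19 in those 5 samples, in this order, and Psma5 by 0.47, -0.36, -0.35, -0.46 and -0.38. Psmb4 deviated by 0.34, -0.32, -0.41, -0.25 and -0.25. Every group but over-expression held such a sample, and vector control held 1 on either side.

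**Figure D5:**
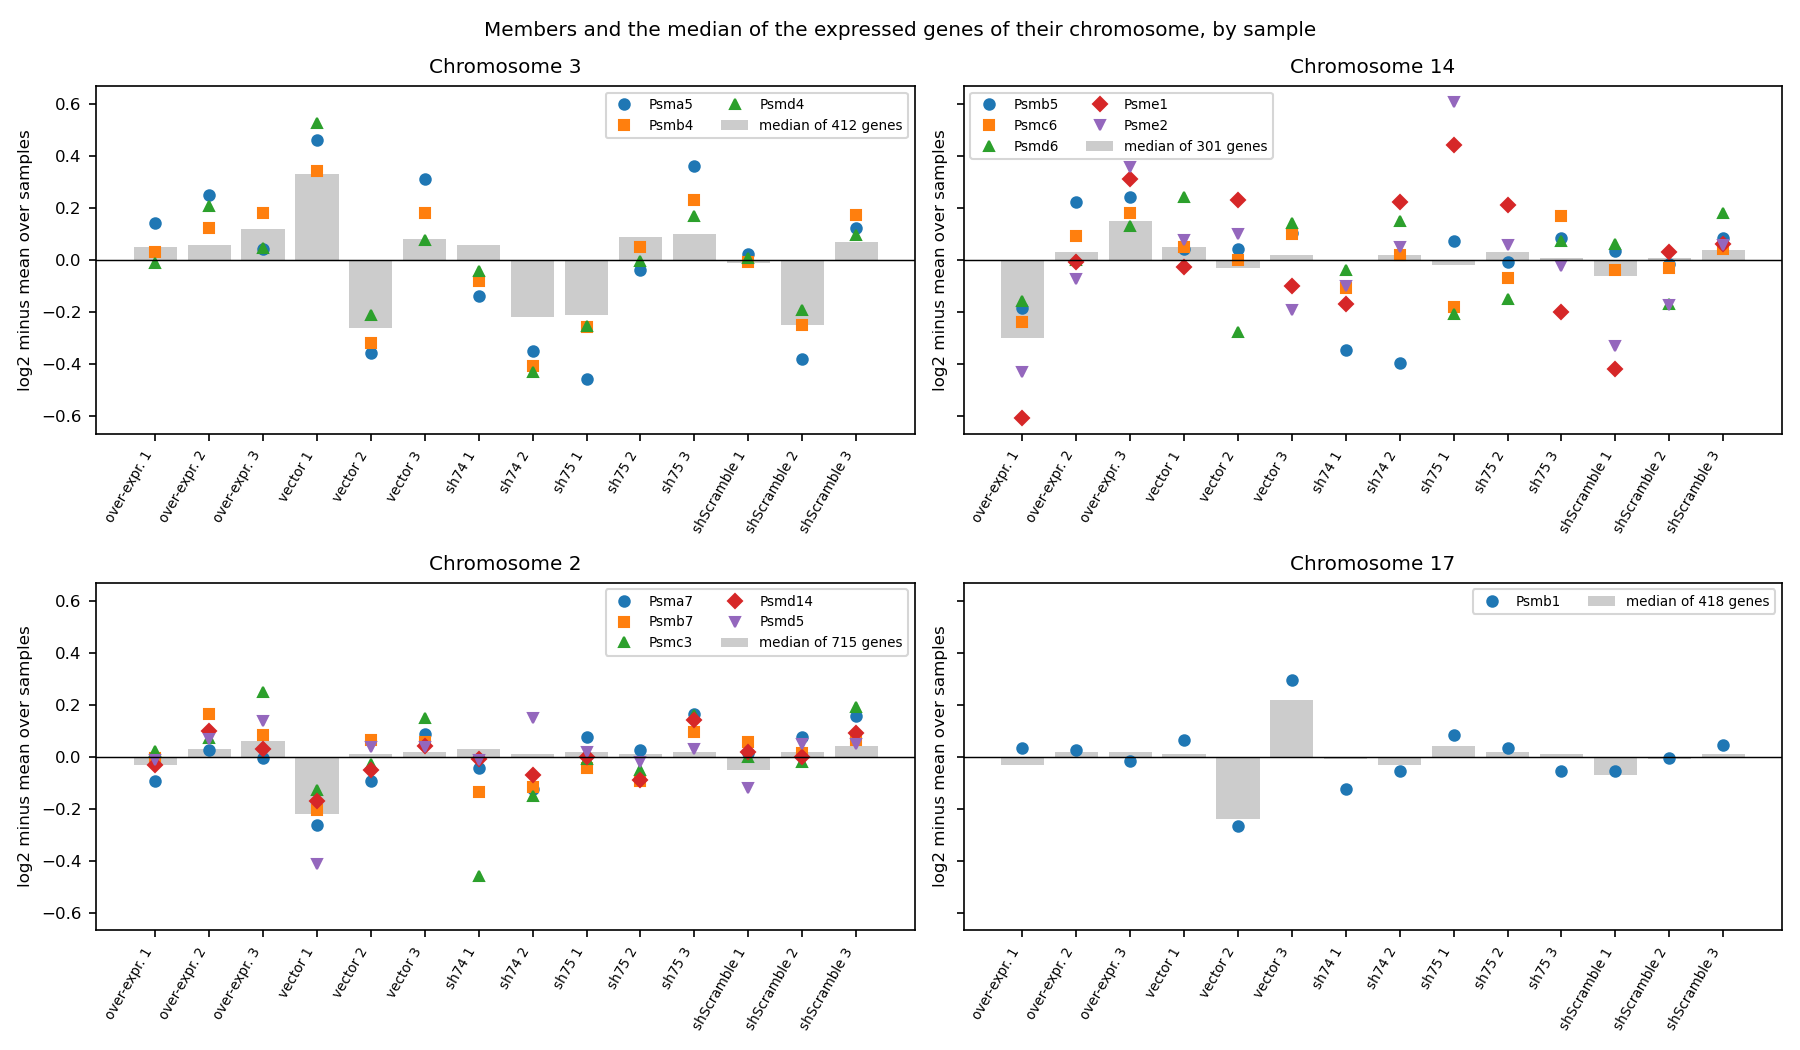
Members (points) and the median of the expressed genes of their chromosome (grey bars), as RMA log2 minus the mean over the 14 samples, for chromosomes 3, 14, 2 and 17. On chromosome 3 the points follow the bars, as at 0.33 in vector control sample 1, and on chromosome 14 all 5 members lie below 0 in over-expression sample 1, where the median is -0.30.

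Other members were placed likewise. The chromosome 14 median was -0.30 in over-expression sample 1, where Psme1 deviated by -0.60, Psme2 by -0.44, Psmc6 by -0.24, Psmb5 by -0.19 and Psmd6 by -0.16. On chromosome 2 it was -0.22 in vector control sample 1, and Psmd5 deviated by -0.41, Psma7 by -0.27, Psmb7 by -0.21, Psmd14 by -0.17 and Psmc3 by -0.13. The low Psma2 value of over-expression sample 3 (-0.50) stood beside a chromosome 13 median of -0.35. Psmb1, a beta subunit, deviated by -0.27 in vector control sample 2 and 0.29 in vector control sample 3, with chromosome 17 medians of -0.24 and 0.22. Psmd7, a lid subunit, deviated by 0.36 in over-expression sample 1, where the chromosome 8 median was 0.35. Over the 16 combinations of sample and chromosome that held members and had a median of at least 0.2 in size, 35 of 35 member values had the sign of the median. Of 7029 values of other genes there, 87.3% did. The labels state no batch, clone or karyotype for a sample, and why the chromosome medians moved was not tested.

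Taking out the chromosome median narrowed the spread within groups in 32 of 37 members and widened it in 5. The median SD within groups was 0.099 after and 0.137 before. For Psmb4, 8.86% of the variance within groups was left, for Psmb1 13%, for Psmd4 14.4%, for Psmb5 22.2% and for Psma5 28.7%. For Psma3, by contrast, the variance grew to 188%. In a fit on these values, an alternative chosen after seeing the data, sh74 lay below sh75 by 0.45 in Psmb3 (limma adjusted p = 0.0448) and by 0.42 in Psmb5 (limma adjusted p = 0.0393), and both passed the threshold, as did 0.399% of all probe sets. The moderated F test called Psmb3 alone among the members (0.317% of all). Against shScramble sh74 gave 0 called members (0.0551% of all), with Psmb3 at -0.52 (limma adjusted p = 0.0623) and Psmb5 at -0.42 (limma adjusted p = 0.103). Below 0 were 31 of 37 members in sh74 against shScramble (49.2% of all), 29 in sh75 against shScramble (49.9%) and 25 in sh74 against sh75 (49.1%). The count for sh75 was thus higher than the 22 found before the subtraction, and nearer to that of sh74.

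Genes that assemble, inhibit or serve the proteasome were taken as a further list, of which 17 of 24 were measured and 0 were called in any comparison. In sh74 11 were below 0 (median -0.08, with 48.7% of all probe sets below 0) and 6 had an unadjusted p under 0.05 (7.33% of all). In over-expression 0 had one (2.58% of all), in sh75 1 (8.26%), in both hairpins 5 (7.3%), in sh74 against sh75 1 (8.93%) and in the difference of changes 3 (3.49%). Rad23b, a shuttle that brings ubiquitinated proteins to the proteasome, had a change of -0.69 in sh74 (SE 0.14, limma adjusted p = 0.224) and of -0.01 in sh75. Psmg2, a chaperone of the alpha ring, had -0.40, the inhibitor Psmf1 -0.33 and the proteasome-bound deubiquitinase Uchl5 -0.36. Psme4, or PA200, an activator that caps the core, had 0.33 in sh74 and 0.23 in sh75. Sem1, the small lid subunit outside the 37, had 0.32 in sh74 and 0.17 in sh75. Neither hairpin group of Sem1 overlapped shScramble (22% and 13.5% of all probe sets in the same order). Uchl5 was also low in sh75 (-0.35, SE 0.14, limma adjusted p = 0.542). Nfe2l1, the factor that induces subunit genes when activity is blocked, had a change of -0.14 in sh74 and 0.12 in sh75, and Nfe2l2 of 0.19 and 0.12. The germ cell and thymus variants Psma8 and Psmb11 lay at 5.50 to 5.76 and 5.26 to 5.51.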

How the data were processed

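The 14 samples were hybridized to Affymetrix Mouse Gene 1.0 ST arrays. The authors processed them by RMA with oligo (versions not given in the sources used here), and the deposited log2 values were used as they stand. RMA equalizes the arrays, which hides a change shared by all genes. Of 35556 probe sets, the 21789 with 1 symbol were tested. RefSeq (GRCm38.p6) gave chromosomes and matched 21698 of them. For 5 members with several probe sets the highest mean was used, and whether probes also read pseudogene copies was not tested. A single limma fit held all 5 groups (limma 3.58.1, R 4.3.3, 9 residual and 2.09 prior degrees of freedom), with two-sided tests, Benjamini-Hochberg adjustment over 21789 probe sets and limma SEs. Tested on simulated data for sh75 against shScramble, it recovered 84.7% of 200 probe sets given a 2-fold change among 21789. False calls averaged 10.6 over 5 runs. The simulated noise was independent between probe sets, and neither smaller changes nor a change in the 2 samples of sh74 were simulated. Values per sample are given for the 3 members with the smallest p in over-expression, sh74 and sh75. They are also given for Psmb5, Psmb6, Psmb7, Psmb8, Psme1, Psme2 and Cnot7. Psmb9 has them for the hairpin and shScramble samples only, and Psmb10 is given as a range. Other named extremes were chosen after their values were seen. Members and lists were chosen with earlier results of these data known. Alternatives changed the filter, scaling, variance prior, samples fitted, array weights, block, test and probe set rule, or left out each sample.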

Additional observations from a re-analysis of the deposited data

How the results depend on the processing

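In all, 327 recomputed values kept their direction and side of the threshold or stayed within the spread of the samples, 3 moved and 2 gained calls. None of the 3 members of smallest p in over-expression, sh74 or sh75 changed its direction, but the member median changed sign with 1 sample left out in over-expression, sh75 and sh74 against sh75. Subtracting chromosome medians, an alternative chosen after seeing the data, gave 2 called members in sh74 against sh75 (Psmb3 and Psmb5, beside 0.399% of all probe sets) and 1 in the F test over 5 groups (Psmb3, limma adjusted p = 0.049, beside 0.317% of all), where 0 were called otherwise. Leaving out each sample gave member medians from -0.06 to 0.01 in over-expression, from -0.14 to -0.05 in sh74, from -0.10 to 0.02 in sh75, from -0.13 to -0.05 in both hairpins, from -0.13 to 0.01 in sh74 against sh75, and from 0.05 to 0.14 in the difference of changes. Calls remained 0 in all of these fits. The lone sample left in sh74 was assumed to vary like the other groups. The title suffixes are not explained in the labels. With the number after the point as a replicate block the member median was -0.02 in over-expression, -0.13 in sh74 and -0.02 in sh75, and with the number before it -0.04 in sh75, the only comparison it allowed. No block changed a call. However, sh74 and over-expression shared no number before the point with their controls, so that block could not be applied to them. Over-expression samples 2 and 3 carry the same number before the point, as do sh75 samples 2 and 3. The signal lay far above background for all members, and both the number of arrays and the spread within groups limit the precision.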
